A study of Homo sapiens with 12 samples.

Results

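The group described here is the set of transcripts for the subunits of the mitochondrial respiratory chain and of ATP synthase. Members were chosen by symbol and by level: a gene of the count table belonged if its symbol named a subunit of complex I (NDUFA, NDUFB, NDUFC, NDUFS, NDUFV, MT-ND), complex III (UQCR, MT-CYB), complex IV (COX4 to COX8, MT-CO) or complex V (ATP5, MT-ATP), if it was not a pseudogene name, and if it averaged at least 5 CPM (a gene's count scaled to a common library size) over the libraries. Of 56638 genes in the table, 224 matched by symbol; 125 of these were pseudogene names, 14 fell under the level, and 85 were members. The nuclear genome encodes 72 of them (36 in complex I, 8 in complex III, 11 in complex IV, 17 in complex V) and the mitochondrial genome 13 (7, 1, 3 and 2 in the same order). MT-ATP6 and MT-ATP8 end in the letter P and a number, as pseudogenes do, but are genes and were kept.

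The cells were NT2/D1, pluripotent human embryonal carcinoma cells that differentiate under all-trans retinoic acid (ATRA). PRMT6, an arginine methyltransferase of histones and other proteins, had been deleted with CRISPR/Cas9 in 1 line, which the labels call KO-2, and the controls are CRISPR/Cas9 control cells. Poly(A) RNA was sequenced from 4 groups of 3 libraries: knockout without ATRA, control without ATRA, knockout with 1 µM ATRA for 3 days, and control with the same treatment. The labels do not say whether a group's libraries were grown as separate cultures, so the p-values measure only the spread between these libraries, and with 1 knockout line the deletion and the line cannot be told apart.

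The respiratory chain passes electrons from NADH and succinate through complexes I to IV to oxygen, pumping protons across the inner mitochondrial membrane, and complex V uses the gradient to make ATP. Complexes I, III, IV and V are built from proteins of both genomes: the mitochondrial DNA encodes a few hydrophobic core proteins, and the nucleus all the others. Embryonal carcinoma cells, like other pluripotent cells, are known for a high rate of glycolysis beside respiration.

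The libraries held 25469881 to 60394918 counts. PRMT6 itself stood at 0.0351, 0 and 0.0428 CPM in the untreated knockout, against 22.4, 1.94 and 8.94 CPM in the untreated control, and at 0, 0.0587 and 0 CPM in the ATRA knockout, against 29.9, 15.9 and 26.8 CPM in the ATRA control. It was near 0 in every knockout library, and control library 2 without ATRA had the lowest level among controls. All 10 pluripotency markers averaged at least 1 CPM. They summed to 3373, 3372 and 5722 CPM in the untreated knockout, against 5174, 5509 and 3667 CPM in the untreated control. With ATRA they summed to 1590, 2804 and 1566 CPM in the knockout, against 2287, 3835 and 2655 CPM in the control. Of the 10, 2 were called lower without ATRA, against 21.9% of all genes, and 1 with ATRA, against 811 of 19130 genes. In either comparison 0 were called higher, against 13% of all genes without ATRA and 626 of 19130 genes with ATRA. The 10 stromal markers, COL3A1 and DCN among them, summed to 14260, 14960 and 2634 CPM in the untreated knockout, against 709, 451 and 594 CPM in the untreated control, and to 13320, 2474 and 13220 CPM in the ATRA knockout, against 1214, 363 and 1805 CPM in the ATRA control. In untreated cells 7 of the 10 stromal markers were called higher, against 13% of all genes. The 8 muscle markers, 4 of them over 1 CPM, summed to 88.3, 83.0 and 114 CPM in the untreated knockout, against 30.2, 7.22 and 15.9 CPM in the untreated control, with 3 of 5 tested called higher. With ATRA they overlapped, at 94.7, 50.1 and 99.9 CPM in the knockout, against 81.7, 23.0 and 133 CPM in the control. There 1 of 5 was called higher, against 626 of 19130 genes, and the median log2 fold change was -0.71. Of 9 neuron markers tested 3 were higher and 1 lower in each of the 2 comparisons. Their median log2 fold change was -0.62 without ATRA and -1 with ATRA. All genes were 13% higher and 21.9% lower without ATRA, and 626 higher and 811 lower of 19130 with ATRA. The part of these cell type markers in the results was not tested. Untreated knockout libraries 1 and 2 were close to each other, with a per-gene chi-square of 9.01, and so were ATRA knockout libraries 1 and 3, with 1.91, above counting noise of about 1 but far below the 78 to 416 of the other within-group pairs. These 2 close pairs are the libraries with the high stromal sums, so each knockout group may hold fewer than 3 independent samples. Expression relative to the mean of all libraries also moved with gene GC content: the rank correlation across genes was 0.325 to 0.477 in the untreated knockout, against -0.377 to -0.217 in the untreated control, and 0.118 to 0.277 in the ATRA knockout, against -0.308 to 0.091 in the ATRA control. In bulk RNA, fewer cells of a type and less RNA per cell cannot be told apart.

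Mitochondrial mRNAs dominated the group. The 13 together took 44430, 45990 and 36480 CPM in the untreated knockout, against 48600, 59870 and 33110 CPM in the untreated control. With ATRA they took 51720, 37530 and 53870 CPM in the knockout, against 38740, 57900 and 48760 CPM in the control. The groups overlapped in both comparisons. The 70 nuclear subunits summed to 12780, 12290 and 15560 CPM in the untreated knockout, against 10340, 15230 and 8708 CPM in the untreated control, again with overlap. With ATRA the nuclear sum was 12960, 13720 and 13170 CPM in the knockout, against 13580, 15800 and 10430 CPM in the control. ATP5S and ATP5SL, which match by symbol but are not ATP synthase subunits, were left out of these sums. Mitochondrial mRNAs were 2.35 to 4.70 times the nuclear sum, depending on the library, with the lowest ratio in untreated knockout library 3 and the highest in untreated control library 1.

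**Figure D1:**
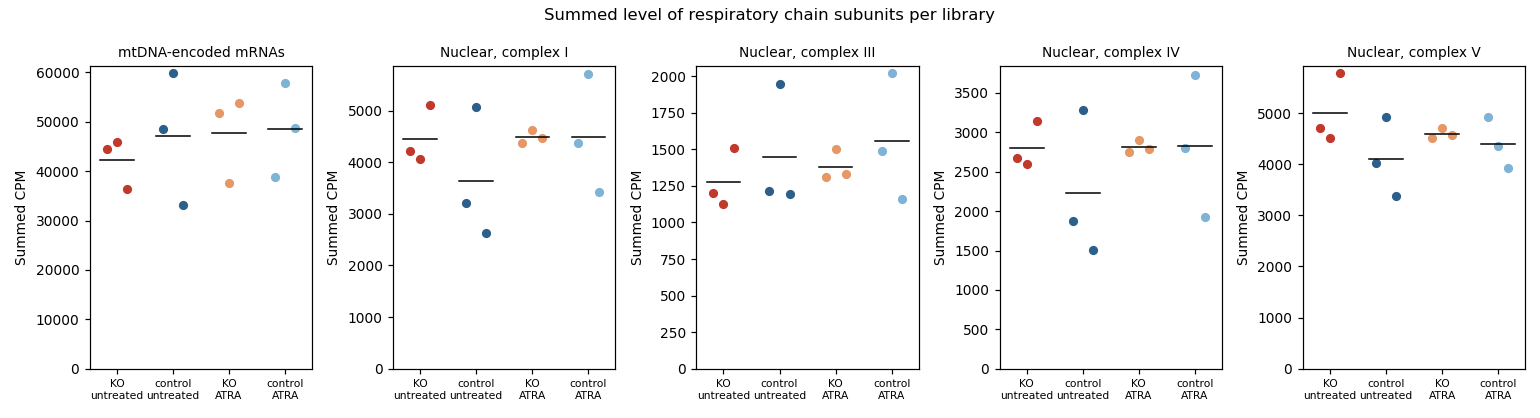
Summed CPM of the 13 mitochondrially encoded mRNAs and of the nuclear subunits of each complex, 1 point per library, with the group mean as a line. In every panel the control libraries span a wider range than the knockout libraries of the same treatment.

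By complex, the nuclear subunits of complex I summed to 4460 ± 568 CPM in the untreated knockout and 3641 ± 1273 CPM in the untreated control (SD, n = 3 each). Those of complex III summed to 1278 ± 204 CPM in the untreated knockout and 1450 ± 428 CPM in the untreated control. For complex IV the sums were 2804 ± 298 CPM in the knockout and 2224 ± 939 CPM in the control, and for complex V 5003 ± 693 CPM in the knockout and 4110 ± 777 CPM in the control. The difference of the means was smaller than the control SD in complexes I, III and IV and larger in complex V. With ATRA the knockout and control means of complexes I and IV were nearly equal. They were 4489 ± 121 CPM in the knockout and 4496 ± 1150 CPM in the control for complex I, and 2814 ± 77.7 CPM in the knockout and 2821 ± 897 CPM in the control for complex IV. The spread was itself unequal between groups: the median coefficient of variation over the 72 nuclear members was 14.1% in the untreated knockout, against 39.3% in the untreated control, and 5.94% in the ATRA knockout, against 25.9% in the ATRA control. Over all 19130 genes tested these medians were 18.1% in the untreated knockout, against 34.9% in the untreated control, and 18.04% in the ATRA knockout, against 30.9% in the ATRA control. Untreated control library 2 was the highest of its group for 61 of the 72 nuclear members and untreated control library 3 the lowest for 52, so most nuclear members were high or low in the same libraries.

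**Figure D2:**
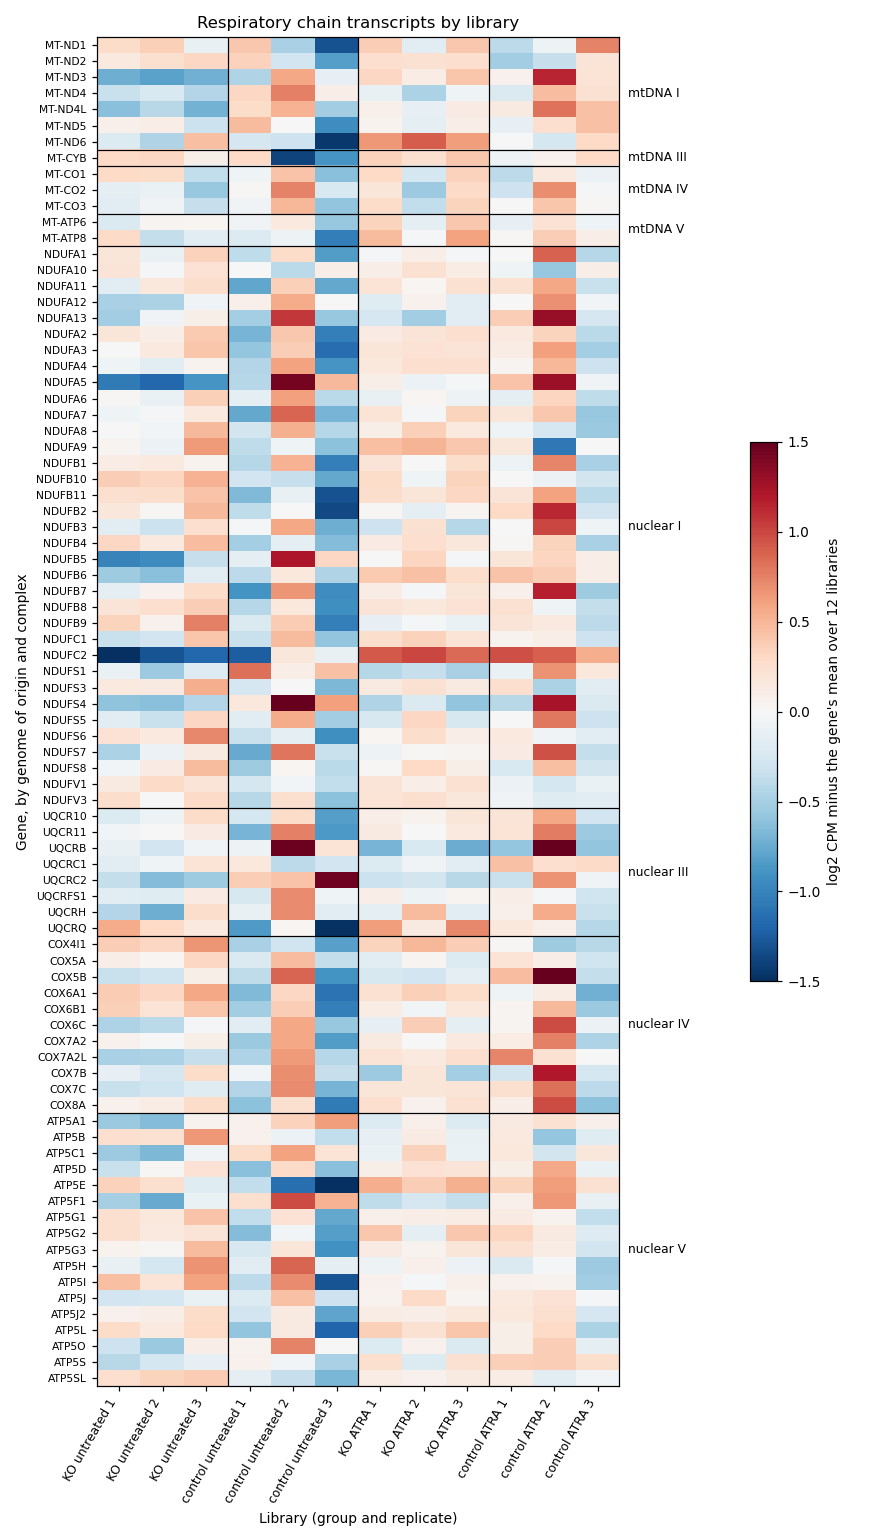
Each cell is a member's log2 CPM in a library minus that member's mean over the 12 libraries, with genes ordered by genome of origin and complex and knockout groups left of their controls. Control library 2 of each treatment is red, and control library 3 of each treatment blue, for most nuclear members; NDUFC2, NDUFA5 and NDUFB5 are blue in the untreated knockout.

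Without ATRA, the knockout differed from the control in a limited set of nuclear subunits, in both directions. In edgeR's quasi-likelihood test with Benjamini-Hochberg adjustment over all genes, 19 of the 85 members passed an adjusted p of 0.05, which is 22.4%, against 34.9% of all genes tested. Of these, 8 were higher and 11 lower in the knockout, against 13% and 21.9% of all genes. Libraries of knockout and control did not overlap for 28 members, or 32.9%, against 47.9% of all genes. Both shares of the members were below those of all genes, a difference that was not tested. The median log2 fold change was 0.20 for nuclear members, 0.08 for mitochondrial members and -0.11 for all genes.

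The calls depended on how base composition was treated. The 8 higher members had a median GC content of 47.6% (38.4% to 58.8%) and the 11 lower ones 42.4% (34.1% to 45.5%), with 46.4% for members not called, so the ranges overlapped; for all genes called the medians were 55.5% for higher and 41.0% for lower. With each library's GC trend removed, 13 members were called higher and 0 lower, against 8.44% of all genes higher and 9.15% lower. Of the 8 higher members COX4I1, ATP5E, NDUFB4 and NDUFB11 were still called, and NDUFB10, NDUFS6, UQCRQ and ATP5SL were not. With the close knockout pairs summed into 1 library each, 0 were called in either direction, against 2.04% of all genes higher and 3.38% lower, at a median nuclear fold change of 0.25. Without untreated knockout library 3 and ATRA knockout library 2, the libraries with the lower stromal sums, 3 were higher and 6 lower, against 8.80% and 13.9% of all genes. Single libraries also decided the count. It was 24 higher and 6 lower without untreated control library 2 (10.1% and 17.7% of all genes), and 3 higher and 8 lower without untreated control library 3 (5.91% and 12.2%). Leaving out untreated knockout library 1, 2 or 3 gave 5, 4 and 4 higher (6.93%, 5.62% and 9.24% of all genes) and 4, 2 and 7 lower (12.3%, 9.84% and 15.0%).

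In complex I, 9 of 36 nuclear members were called, 4 higher and 5 lower. NDUFB10, an accessory subunit of the membrane arm, had 125, 121 and 140 CPM in the untreated knockout, against 79.6, 76.5 and 57.0 CPM in the untreated control. All knockout libraries lay above all controls, and NDUFB10 rose by 0.86 ± 0.19 (log2, SE; edgeR adjusted p = 0.00809). NDUFS6, an accessory subunit beside the NADH-oxidising module, had 116, 110 and 165 CPM in the untreated knockout, against 79.7, 90.7 and 53.1 CPM in the untreated control. It rose by 0.81 ± 0.23 (edgeR adjusted p = 0.0200), with no overlap. NDUFB4, another membrane-arm subunit, had 156, 140 and 173 CPM in the untreated knockout, against 88.4, 114 and 80.04 CPM in the untreated control, and rose by 0.74 ± 0.22 (edgeR adjusted p = 0.0250). Its knockout libraries were again all above the controls. NDUFB11, a membrane-arm subunit encoded on the X chromosome, was also called, at 0.92 ± 0.30. Without untreated control library 3 the values were 0.61 for NDUFS6, 0.63 for NDUFB4 and 0.67 for NDUFB11, and none of the 3 passed, while NDUFB10 passed whichever library was left out. NDUFB4 and NDUFB11 were also not called when any 1 untreated knockout library was left out, nor NDUFS6 without knockout library 3 (0.61) or NDUFB11 without control library 1 (0.91). With the GC trend removed NDUFB10 stood at 0.49 (edgeR adjusted p = 0.0878) and NDUFS6 at 0.42 (edgeR adjusted p = 0.196), and neither was called, while NDUFB4 stood at 1.52 and NDUFB11 at 1.07 and both were.

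The 5 lower complex I members were NDUFB5, NDUFA5, NDUFC2, NDUFS4 and NDUFS1. NDUFB5, a membrane-arm subunit, had 26.5, 27.6 and 41.9 CPM in the untreated knockout, against 48.4, 123 and 66.1 CPM in the untreated control, and fell by 1.31 on the log2 scale (SE 0.31; edgeR adjusted p = 0.0101). The libraries did not overlap, and control library 2 was the highest. NDUFA5, a subunit of the arm that reaches into the matrix, had 9.88, 9.13 and 11.2 CPM in the untreated knockout, against 15.3, 55.5 and 28.9 CPM in the untreated control. It had the lowest fold change of any member, at -1.72 ± 0.43 (edgeR adjusted p = 0.0112), and its control libraries spread more than 3-fold. NDUFC2, a membrane-arm subunit, had 17.9, 21.2 and 23.1 CPM in the untreated knockout, against 22.1, 58.3 and 47.9 CPM in the untreated control, and fell by 1.05 (SE 0.30; edgeR adjusted p = 0.0189). Control library 1 lay inside the knockout range, so the groups overlapped. NDUFS4, mutated in some inherited complex I deficiencies, had 13.6, 13.4 and 15.2 CPM in the untreated knockout, against 22.9, 59.6 and 31.6 CPM in the untreated control, at -1.44 ± 0.44. NDUFB5 passed whichever library was left out. NDUFA5 did not pass without untreated knockout library 2 (-1.65; edgeR adjusted p = 0.0505). Without untreated control library 2, NDUFS4 stood at -0.96 and NDUFC2 at -0.76, and neither passed. Neither passed without untreated knockout library 1 or 2, NDUFS4 also not without knockout library 3 (-1.49), nor NDUFC2 without control library 3 (-0.96). With the GC trend removed none of these 4 was called, at -0.29 for NDUFB5 (edgeR adjusted p = 0.521), -0.17 for NDUFA5 (edgeR adjusted p = 0.625), -0.56 for NDUFC2 and -0.76 for NDUFS4.

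Of the nuclear core subunits, which carry the electron path from NADH to ubiquinone, 1 was called. NDUFS1 had 60.5, 44.4 and 56.9 CPM in the untreated knockout, against 115, 69.4 and 88.0 CPM in the untreated control, and fell by 0.75 (SE 0.25; edgeR adjusted p = 0.0337). This call held in 6 of 15 other settings and in 4 of 12 fits that each left out 1 library; the losses came without any 1 untreated knockout library, untreated control library 1 or 3, ATRA knockout library 1 or 3, or ATRA control library 3. The value was -0.54 without untreated control library 1 and 0.01 with the replicate block and the GC trend removed. NDUFV1, NDUFS3 and NDUFS8 had fold changes of 0.42 to 0.57, and NDUFS7 of -0.18; none of these passed. NDUFV2 averaged only 0.473 CPM and was no member. How reads with several matches were counted is not given in the sources used here.

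Complex III, which passes electrons from ubiquinol to cytochrome c, had 1 higher and 1 lower member among 8. UQCRC2, a core protein on the matrix side, had 56.2, 45.7 and 49.8 CPM in the untreated knockout, against 92.9, 96.8 and 198 CPM in the untreated control. It fell by 1.35 (SE 0.32; edgeR adjusted p = 0.00919), with no overlap, and control library 3 was far above the other controls, although that library was the lowest for most nuclear members. UQCRQ, a small membrane subunit, had 170, 143 and 128 CPM in the untreated knockout, against 64.2, 118 and 41.3 CPM in the untreated control. It rose by 0.98 ± 0.33 (edgeR adjusted p = 0.0382), without overlap. UQCRQ was called in 5 of those 12 fits, and not without any 1 untreated knockout library, untreated control library 1 or 3 (0.68 without library 3), or ATRA knockout library 1 or 3; UQCRC2 was called in all 12. Neither was called with the GC trend removed, with UQCRC2 at -0.25 (edgeR adjusted p = 0.493) and UQCRQ at 0.97 (edgeR adjusted p = 0.0855).

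In complex IV, which reduces oxygen, 1 of 11 nuclear members was called. COX4I1, the common isoform of the regulatory subunit 4, had 835, 806 and 1029 CPM in the untreated knockout, against 462, 529 and 368 CPM in the untreated control. Every knockout library stood well above every control, and COX4I1 rose by 0.97 ± 0.21, with the smallest adjusted p of the group (edgeR adjusted p = 0.00690). It kept the call in 12 of 12 fits without 1 library and in 13 of 15 other settings, the GC trend removed among them (0.92). COX6A1, the widely expressed isoform of subunit 6A, had 150, 142.3 and 171 CPM in the untreated knockout, against 72.7, 142.3 and 53.5 CPM in the untreated control, and did not pass (0.79; edgeR adjusted p = 0.0729). It passed in 7 of the 27 alternatives, among them DESeq2 (0.86; adjusted p = 0.0395), the GC trend removed (1.67; edgeR adjusted p = 0.00808) and without untreated control library 2 (1.29; edgeR adjusted p = 0.00896). The muscle and tissue isoforms were near 0 throughout: COX4I2 averaged 0.102 CPM, COX6A2 0.0257 CPM, COX7A1 0.310 CPM and COX8C 0.0789 CPM. COX6B2, a testis isoform, averaged 1.04 CPM.

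Complex V had 5 called among its 17 members. ATP5E, the epsilon subunit of the rotating stalk, had 208, 193 and 145 CPM in the untreated knockout, against 127, 74.9 and 56.0 CPM in the untreated control. All knockout libraries were above all controls, and ATP5E rose by 1.09 ± 0.28 (edgeR adjusted p = 0.0122), a call kept in 12 of 12 fits without 1 library and in 13 of 15 other settings, with 2.02 when the GC trend was removed. ATP5F1, subunit b of the peripheral stalk, had 65.7, 55.0 and 86.9 CPM in the untreated knockout, against 109, 183 and 134 CPM in the untreated control, and fell by 1.04 (SE 0.26; edgeR adjusted p = 0.0120). ATP5C1, the gamma subunit that turns inside the catalytic head, had 76.7, 70.2 and 108 CPM in the untreated knockout, against 136, 171 and 129 CPM in the untreated control, at -0.77 ± 0.23 (edgeR adjusted p = 0.0227). Neither ATP5F1 nor ATP5C1 overlapped between groups. ATP5A1, the alpha subunit of the head, fell by 0.71 (SE 0.23; edgeR adjusted p = 0.0289), while ATP5B, the beta subunit with which it alternates, had 1879, 1848 and 2476 CPM in the untreated knockout, against 1641, 1480 and 1216 CPM in the untreated control (0.52; edgeR adjusted p = 0.0914). ATP5SL, also known as DMAC2 and needed for complex I assembly, rose by 0.70 ± 0.18. Without untreated knockout library 2, ATP5F1 (-0.89), ATP5C1 (-0.65), ATP5A1 (-0.58) and ATP5SL (0.70) did not pass. ATP5A1 and ATP5C1 also did not pass without knockout library 1 (-0.61 and -0.70), nor ATP5A1 (-0.56) and ATP5SL (0.56) without control library 3, nor ATP5C1 without control library 2 (-0.65). Removing the GC trend left ATP5F1 at -0.01 (edgeR adjusted p = 0.971), ATP5C1 at -0.07 (edgeR adjusted p = 0.868), ATP5A1 at -0.46 and ATP5SL at 0.29, and none of the 4 was called.

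**Figure D3:**
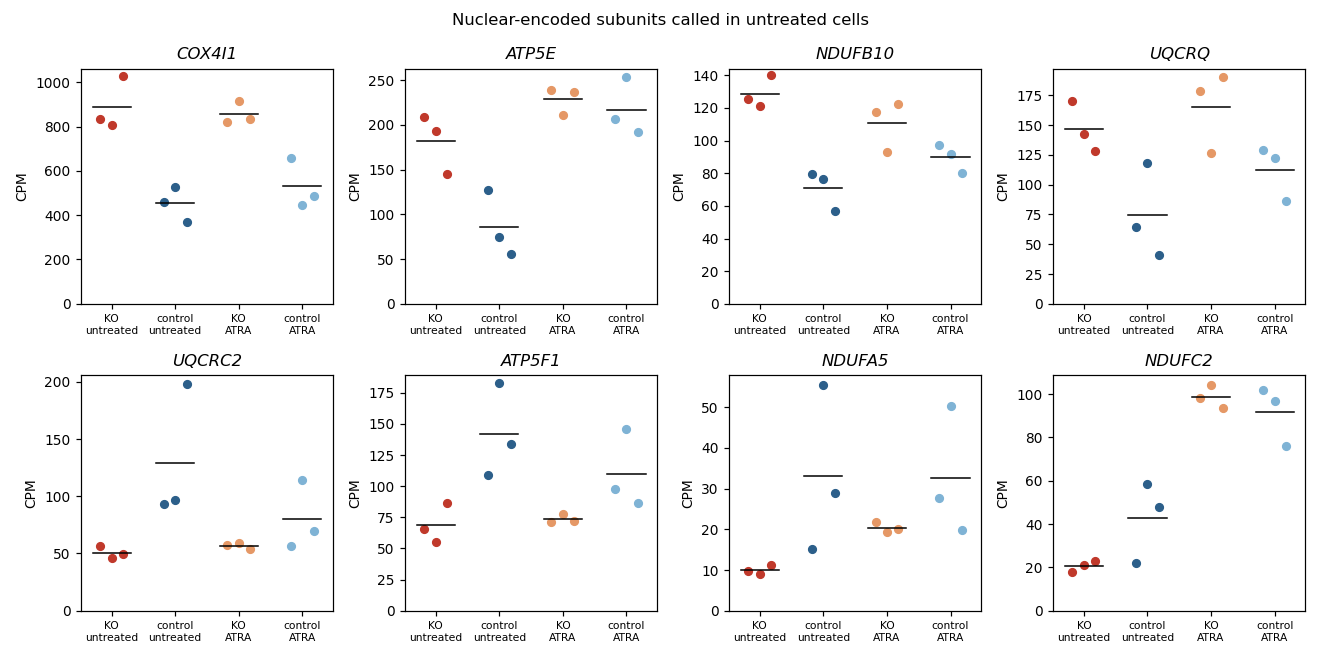
CPM of 8 nuclear-encoded subunits called in untreated cells, 1 point per library, with the group mean as a line. COX4I1, ATP5E, NDUFB10 and UQCRQ are higher, and UQCRC2, ATP5F1, NDUFA5 and NDUFC2 lower, in the untreated knockout than in the untreated control; NDUFC2 is near 100 CPM in both groups with ATRA.

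Reads of these genes may be shared with neighbours, since the strand setting of the counting is not given: COX4I1 overlaps EMC8, ATP5E overlaps TUBB1, NDUFB11 overlaps RBM10, UQCRQ overlaps GDF9 and ATP5F1 overlaps WDR77, each on the opposite strand. On the same strand, where no strand setting separates them, NDUFB5 overlaps an unnamed protein-coding gene and NDUFS1 the pseudogene GCSHP3. Part of the pseudogene copies could also take reads, but of 125 pseudogenes only ATP5G2P4, at 10.4 CPM, averaged at least 0.5 CPM.

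Nuclear respiratory genes are textbook targets of the factors NRF1, GABP (an ETS factor) and YY1, so the promoters of the members were searched for the letters of 3 motifs on both strands (a promoter with several motifs counts for each): CGCATGCG (the middle of the NRF1 site, its own reverse complement, not taken from a motif collection), CCGGAAGT or ACTTCCGG (ETS), and AAGATGGCG or CGCCATCTT (YY1). RefSeq promoters of GRCh38.p14, from 250 bases before to 50 after a gene start, were matched for 60 of the 72 nuclear members. A gene with several promoters counted once, if any of them held the letters, so such genes had more sequence searched. At least 1 motif was present in 25 of the 60, or 41.7%, against 8.87% of all 27305 genes with a promoter and 18.5% of 8531 genes at 5 CPM or more. By motif the shares were 16.7% for NRF1, against 2.46% of all genes and 4.69% of those at 5 CPM or more, 16.7% for ETS, against 4.95% and 10.3%, and 13.3% for YY1, against 2.14% and 5.06%. The letters searched for NRF1 decided much of its share. A longer form, the same letters with a G before and a C after, was searched first and was in 3 members, or 5%, against 1.52% of all genes; the shorter form was taken instead after those shares had been seen, so the share measures these letters and not NRF1 sites. With the longer form at least 1 motif was in 20 of the 60, or 33.3%, against 8.07% of all genes. Of 8 higher members with a promoter 3 held a motif, as did 5 of 7 lower ones and 17 of 45 that were not called. The shorter NRF1 letters were in 2 higher members, NDUFB4 and NDUFS6, and in 2 lower ones, ATP5C1 and NDUFA5. Their promoters with these letters are printed to show where the letters lie. With the GC trend removed NDUFB4 was still called, and NDUFS6, ATP5C1 and NDUFA5 were not. Whether the letters bear on the direction of a call was not tested. NDUFA5 also has other RefSeq promoters, without any of the motifs, which are not printed. Capitals mark the motif, and a match describes the letters only.
NDUFB4 (chr3:120596086-120596385, + strand): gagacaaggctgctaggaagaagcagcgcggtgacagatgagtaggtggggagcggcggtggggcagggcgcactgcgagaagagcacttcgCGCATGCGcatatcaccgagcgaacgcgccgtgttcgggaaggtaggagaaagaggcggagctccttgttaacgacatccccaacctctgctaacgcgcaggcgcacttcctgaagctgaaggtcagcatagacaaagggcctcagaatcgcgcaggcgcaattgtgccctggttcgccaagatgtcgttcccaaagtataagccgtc
NDUFS6 (chr5:1801157-1801456, + strand): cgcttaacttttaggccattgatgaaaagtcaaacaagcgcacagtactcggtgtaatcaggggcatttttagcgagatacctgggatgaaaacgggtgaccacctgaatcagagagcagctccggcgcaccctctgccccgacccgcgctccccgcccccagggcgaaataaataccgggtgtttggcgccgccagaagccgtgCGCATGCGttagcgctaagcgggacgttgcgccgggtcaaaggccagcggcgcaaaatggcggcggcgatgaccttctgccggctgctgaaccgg
ATP5C1 (chr10:7787927-7788226, + strand): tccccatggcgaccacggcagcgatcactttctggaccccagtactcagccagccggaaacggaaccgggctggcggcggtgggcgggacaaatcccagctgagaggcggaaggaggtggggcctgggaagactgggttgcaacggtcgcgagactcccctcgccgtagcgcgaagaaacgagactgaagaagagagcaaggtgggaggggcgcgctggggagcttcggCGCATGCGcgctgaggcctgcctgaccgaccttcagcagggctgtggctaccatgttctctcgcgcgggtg
NDUFA5 (chr7:123557769-123558068, - strand): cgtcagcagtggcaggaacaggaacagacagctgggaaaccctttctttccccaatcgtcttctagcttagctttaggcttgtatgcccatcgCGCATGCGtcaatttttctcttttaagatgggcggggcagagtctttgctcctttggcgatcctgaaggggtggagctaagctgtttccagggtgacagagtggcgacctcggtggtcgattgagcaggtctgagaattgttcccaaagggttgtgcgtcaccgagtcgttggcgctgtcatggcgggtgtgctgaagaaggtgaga

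The mitochondrially encoded mRNAs are cut from long transcripts of both strands of the mitochondrial DNA, so their levels are not independent of each other. In untreated cells 2 of 13 were called, both lower. MT-ND4 had 6239, 6717 and 5797 CPM in the untreated knockout, against 9711, 13270 and 8438 CPM in the untreated control. No libraries overlapped, and MT-ND4 fell by 0.74 (SE 0.24; edgeR adjusted p = 0.0315). MT-ND4L, which lies on the same mRNA, had 470, 540 and 443 CPM in the untreated knockout, against 873, 1040 and 505 CPM in the untreated control, and fell by 0.73 (SE 0.26; edgeR adjusted p = 0.0470). Its control library 3 lay within the knockout range. Without untreated control library 2 the values were -0.54 for MT-ND4 and -0.51 for MT-ND4L, and neither passed; neither passed when any 1 untreated knockout library was left out, nor without ATRA control library 3 (-0.68 and -0.67). MT-ND4L was also not called without untreated control library 1 (-0.67) or any 1 ATRA knockout library (-0.73). Removing the GC trend left MT-ND4 at -0.31 (edgeR adjusted p = 0.396) and MT-ND4L at -0.14, neither called, while MT-ND6 (1.20) and MT-ATP8 (1.26) were called higher. MT-ND3 also showed no overlap, with 515, 487 and 516 CPM in the untreated knockout, against 624, 1276 and 783 CPM in the untreated control, but did not pass (edgeR adjusted p = 0.0558).

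The other 10 mitochondrial mRNAs overlapped between the untreated groups, with fold changes of -0.50 to 0.71. MT-CO1, the catalytic subunit of complex IV, had 11750, 11580 and 7427 CPM in the untreated knockout, against 9146, 12870 and 6184 CPM in the untreated control (0.13; edgeR adjusted p = 0.762). MT-CYB, the complex III member, had 2849, 2885 and 2471 CPM in the untreated knockout, against 2860, 890 and 1258 CPM in the untreated control (0.71; edgeR adjusted p = 0.115). Its control libraries differed more than 3-fold, with library 1 at the knockout level. Without untreated control library 1, MT-CYB (1.35), MT-ND1 (1.03) and MT-ND2 (0.76) were called higher and MT-ND3 (-1.02) lower. That fit called 17.8% of all genes higher and 25.0% lower. In these poly(A) libraries MT-ND6, encoded on the opposite strand from the other 12, had the lowest level of the 13 per length. It stood at 252 CPM per kilobase, against 10920 CPM per kilobase for MT-CO2. How far poly(A) capture sets these levels was not tested. The ribosomal RNA MT-RNR2, no member, stood at 15070 CPM in untreated control library 2 and at 1868 to 3870 CPM elsewhere. Among the annotated nuclear copies of mitochondrial genes MTATP6P1 was high, at 208 to 389 CPM, and could share reads with MT-ATP6.

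**Figure D4:**
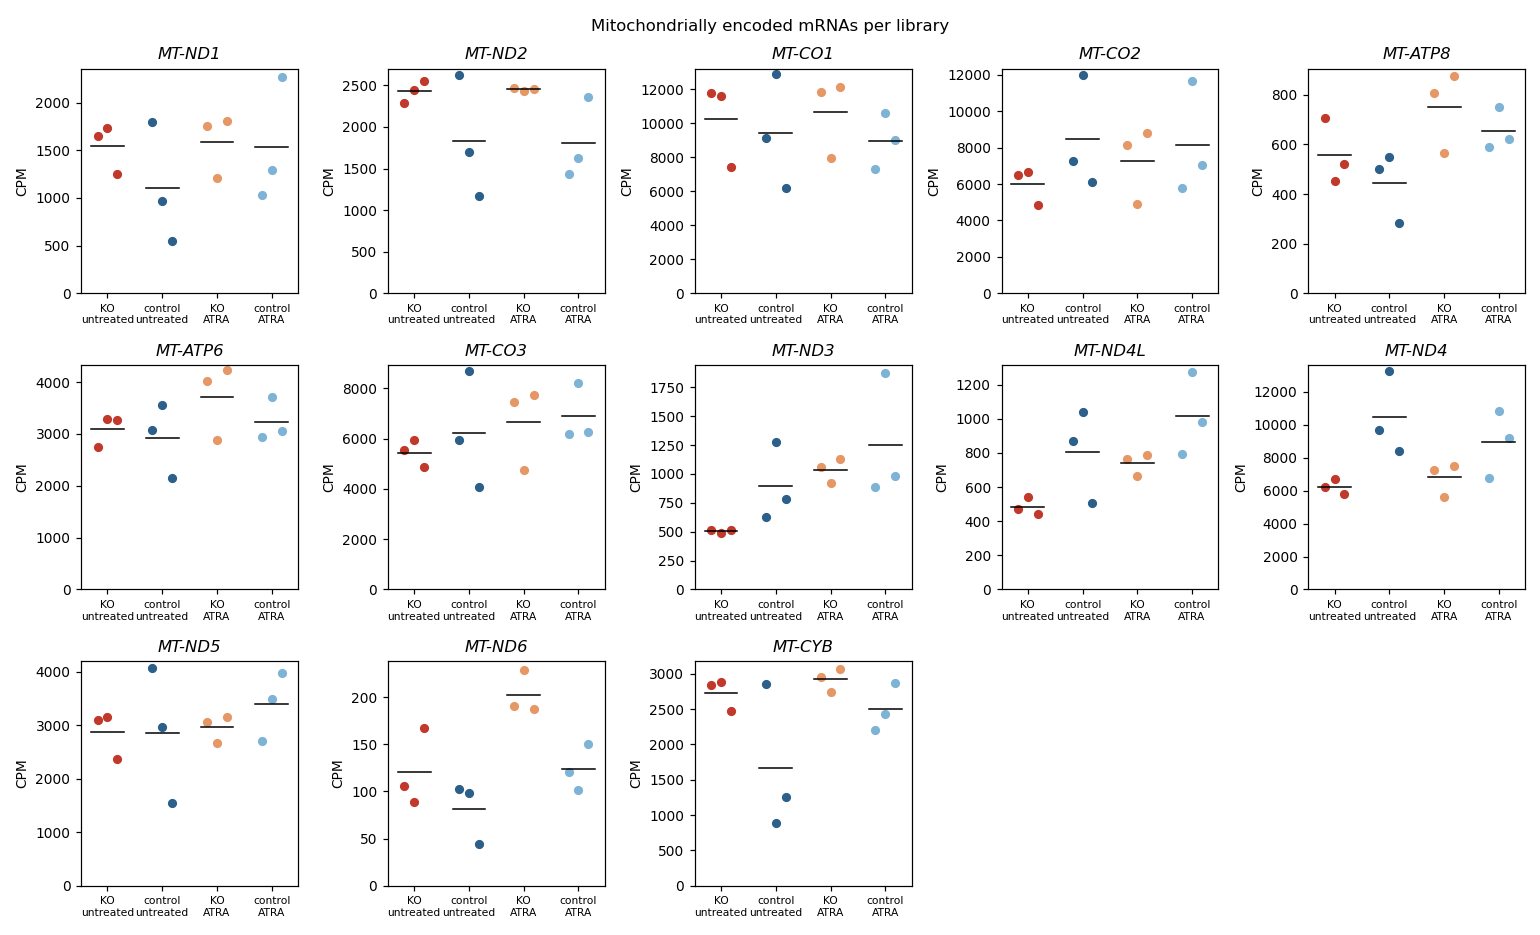
CPM of the 13 mitochondrially encoded mRNAs, 1 panel per gene in the order of the mitochondrial genome, 1 point per library, with the group mean as a line. In untreated cells the knockout libraries of MT-ND4 and MT-ND3 all lie below the control libraries.

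With ATRA, 0 of the 85 members were called between knockout and control, against 7.51% of all genes tested. At an unadjusted p under 0.05 there were 5, against 2087 of all genes higher and 3289 lower. DESeq2 called 1 member higher, against 1322 of 19130 genes. Libraries did not overlap for 17 members, or 20%, against 34.6% of all genes. COX4I1 was the nearest to the threshold, with 820, 914 and 837 CPM in the ATRA knockout, against 658, 447 and 487 CPM in the ATRA control (0.69 ± 0.21; edgeR adjusted p = 0.0625; DESeq2 adjusted p = 0.0168). All knockout libraries were above all controls, as in untreated cells, and without untreated control library 2, which enters through the shared spread, COX4I1 passed (0.69; edgeR adjusted p = 0.0416). NDUFS1 had 48.1, 51.1 and 46.3 CPM in the ATRA knockout, against 60.4, 103 and 72.4 CPM in the ATRA control (-0.70; edgeR adjusted p = 0.0945). For ATP5E the values were 239, 211 and 236 CPM in the ATRA knockout, against 206, 253 and 192 CPM in the ATRA control, which overlapped.

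**Figure D5:**
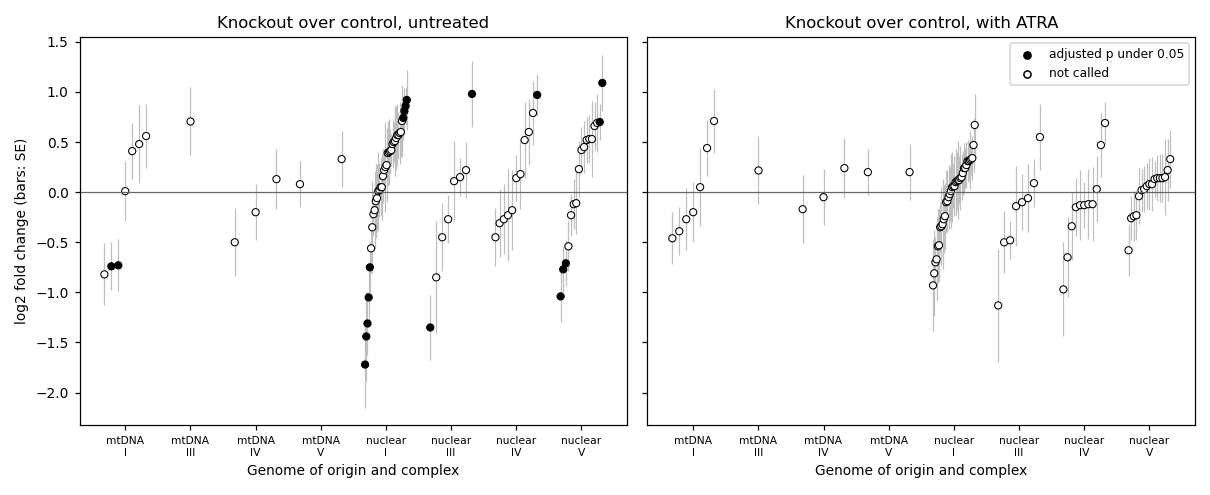
Fitted log2 fold change of knockout over control with its standard error for each member, without ATRA on the left and with ATRA on the right, by genome of origin and complex; filled points passed an adjusted p of 0.05 in edgeR. In untreated cells 19 points are filled, 8 above and 11 below 0, and with ATRA none is.

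Few members were called for ATRA itself, in a test that called few genes at all. It called 0 of the 10 pluripotency markers in either line, at median log2 fold changes of -1.27 (control) and -1.36 (knockout). In control cells 63 members had positive and 22 negative fold changes, with a median of 0.28, against -0.04 for all genes. The nuclear median, also 0.28, was 0.05 without untreated control library 3 or without ATRA control library 2. The knockout median was 0.05, against 0.02. In knockout cells 1 of 85 was called, or 1.2%, against 0.0314% of all genes (6 of 19130). That gene was NDUFC2, with 98.4, 104 and 93.6 CPM in the ATRA knockout, against 17.9, 21.2 and 23.1 CPM in the untreated knockout, a rise of 2.25 ± 0.31 (edgeR adjusted p = 0.0414). In control cells NDUFC2 had 102, 97.0 and 76.0 CPM with ATRA, against 22.1, 58.3 and 47.9 CPM without (1.10; edgeR adjusted p = 0.0832; DESeq2 adjusted p = 0.0127). ATRA libraries thus lay above all untreated ones in both lines, and the difference between the lines did not pass (interaction 1.15 ± 0.42; edgeR adjusted p = 0.509). NDUFC2 overlaps the read-through gene NDUFC2-KCTD14, which held 0 counts, and THRSP on the opposite strand. The call in knockout cells held in 3 of 12 fits without 1 library, and not with the close pairs summed. Those 3 fits left out untreated control library 1 or 2, or ATRA control library 2, and called 62, 16 and 100 of all genes higher. The fit without untreated control library 3 called 2 of all genes higher. The other fits without 1 library, and the summed fit, called 0 of all genes in either direction. The fold change of NDUFC2 stayed between 2.16 and 2.34. Without untreated control library 1 the interaction for NDUFC2 was 1.46 (edgeR adjusted p = 0.0449).

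In control cells 0 members were called with ATRA, against 0.115% of all genes. At an unadjusted p under 0.05 there were 8, against 1901 of all genes higher and 2060 lower. DESeq2 called 2 members higher, against 870 of 19130 genes. ATP5E was nearest, with 206, 253 and 192 CPM in the ATRA control, against 127, 74.9 and 56.0 CPM in the untreated control (1.34 ± 0.28; edgeR adjusted p = 0.0579; DESeq2 adjusted p = 0.00102). The groups did not overlap. Without untreated control library 1, 4 members were called higher, ATP5E (1.74), MT-CYB (1.23) and NDUFC2 (0.79) among them. That fit called 1148 of all 19748 genes tested higher and 1309 lower. Without ATRA control library 2, ATP5E was called higher (1.22) and NDUFS4 lower (-1.20), with 1064 of all 19711 genes tested higher and 1355 lower. All 13 mitochondrial mRNAs had positive fold changes with ATRA in the knockout, from 0.01 to 1.04, and none passed. The interaction of genotype and ATRA was called for 0 members, against 0% of all genes, with 7 members at an unadjusted p under 0.05 and 0 called by DESeq2.

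Levels differed widely between members. Per kilobase of deposited gene length, which spans all annotated exons and is long against some mRNAs, the highest nuclear member of each complex was NDUFS5 (557 CPM per kilobase), UQCRH (341), COX8A (557) and ATP5B (710). Among these ATP5B, the catalytic beta subunit, averaged 1610 CPM. By mean level the lowest members were ATP5S (6.54 CPM) and NDUFS4 (23.7 CPM), and NDUFA6-AS1 (2.61 CPM) and COX6B2 (1.04 CPM) were the nearest below the level that defined membership. NDUFA4, kept with complex I by its symbol, is now counted with complex IV; it had 454, 422 and 494 CPM in the untreated knockout, against 351, 718 and 256 CPM in the untreated control, and its related gene NDUFA4L2 averaged 0.283 CPM.

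The genes that build and supply the chain were read beside the members, in the untreated comparison. There 34.9% of all genes were called, 13% higher and 21.9% lower. How far these lists differ from all genes was not tested. Of 22 genes for mitochondrial transcription and DNA maintenance, 0 were higher and 12 lower, with a median log2 fold change of -1.06. TFAM, which packages mitochondrial DNA and starts its transcription, had 10.3, 9.52 and 14.8 CPM in the untreated knockout, against 26.8, 45.4 and 51.3 CPM in the untreated control, and fell by 1.83 (SE 0.36; edgeR adjusted p = 0.00509). POLG2, the accessory subunit of the mitochondrial DNA polymerase, fell by 1.87 (SE 0.31; edgeR adjusted p = 0.00296). The 13 mRNAs that this machinery transcribes had a median log2 fold change of 0.08. With the GC trend removed 4 of the 22 were lower, against 9.15% of all genes. The medians were then -0.37 for the list and 0.35 for the 13 mRNAs. With the close pairs summed 2 of the 22 were lower, against 3.38% of all genes.

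Of 20 genes for mitochondrial RNA processing and stability, 2 were higher and 11 lower. PTCD3, which binds the small mitochondrial ribosomal subunit, had 14.6, 14.7 and 15.1 CPM in the untreated knockout, against 47.5, 95.8 and 109 CPM in the untreated control, and fell by 2.51 (SE 0.37; edgeR adjusted p = 0.00248). PNPT1, the polynucleotide phosphorylase of mitochondria, fell by 2.41 (SE 0.39; edgeR adjusted p = 0.00294). Both were also called with ATRA, PTCD3 at -1.79 and PNPT1 at -1.99 (edgeR adjusted p = 0.0150 and 0.0135), in a comparison where 7.51% of all genes were. With the close pairs summed, or without untreated knockout library 3 and ATRA knockout library 2, 0 of the list were called with ATRA. The summed fit called 49 higher and 22 lower of 19777 genes there. The fit without those libraries called 553 higher and 328 lower of 19699 genes. HSD17B10, a component of mitochondrial RNase P, rose by 0.96 ± 0.25. With the GC trend removed, in untreated cells, 0 of the 20 were higher and 4 lower, against 8.44% and 9.15% of all genes. With the close pairs summed the counts were 0 and 3, against 2.04% and 3.38%.

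Among 43 assembly factors 2 were higher and 13 lower; NDUFAF7 and COA5 fell by 1.78 and 1.84, and BCS1L, which inserts the iron-sulfur protein into complex III, rose by 1.01 ± 0.32. With ATRA 1 assembly factor was called, in a comparison where 7.51% of all genes were called. That was NDUFAF5, which was higher by 1.09 ± 0.25 (edgeR adjusted p = 0.0262). With the close pairs summed 0 assembly factors were higher, against 49 of 19777 genes. Without untreated knockout library 3 and ATRA knockout library 2, 0 were higher and 1 lower, against 553 and 328 of 19699 genes. The list of complex II and the electron carriers had 1 higher and 3 lower of 10. It also held CYC1 and NDUFAB1, which the member symbols did not match, so the sums of complexes III and I leave them out. SDHD, an anchor of complex II in the membrane, fell by 1.67 (SE 0.30). CYCS, cytochrome c, had 49.1, 40.5 and 67.4 CPM in the untreated knockout, against 83.3, 235 and 142 CPM in the untreated control (-1.55, edgeR adjusted p = 0.0122). Of 75 mitochondrial ribosome genes 18 were higher and 15 lower, of 17 citric acid cycle genes 4 and 5, and of 15 biogenesis regulators 1 and 4. For each of these lists, assembly factors and carriers included, the shares of all genes were 13% higher and 21.9% lower. The regulator that rose was ATF4, with 0.83 ± 0.18, and CREB1 and GABPB1, a subunit of GABP, fell by 1.08 and 0.94. With the GC trend removed the higher and lower counts were 4 and 4 for assembly factors, 1 and 1 for complex II and carriers, 4 and 2 for the ribosome, 1 and 0 for the citric acid cycle, and 0 and 0 for the regulators. The shares of all genes in that fit were 8.44% and 9.15%. With the close pairs summed the counts were 0 and 3, 0 and 1, 1 and 3, 0 and 0, and 0 and 0 for the same lists in that sequence, against 2.04% and 3.38% of all genes.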

How the data were processed

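Per the labels' protocols, NT2/D1 RNA went into libraries made with the Illumina stranded TruSeq kit for mRNA. The authors deposited whole-number read counts per gene for all libraries, with a length per gene in bases. Per the submitters' processing notes, bcl2fastq, TopHat2, Subread, featureCounts and DESeq2 were used on hg19 and GRCh37; not given in the sources used here are versions, the strand setting, the annotation release and what was done with multi-mapping reads. Reads of overlapping genes and near-identical copies therefore cannot be assigned with certainty.

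Groups came from the genotype and ATRA labels, 3 libraries in each of 4 groups, and all 12 columns were used. From the deposited counts, genes were kept by filterByExpr (minimum count 10), which left 19130, and scaled by TMM. Each group had its own coefficient in edgeR's quasi-likelihood fit (version 4.0.16, R 4.3.3), with Benjamini-Hochberg adjustment over all genes tested and a threshold of 0.05. CPM values use TMM-scaled totals, and the common biological coefficient of variation came to 0.367. Intervals from counts were not needed, since every member averaged at least 5 CPM; 3 counts correspond to 0.0497 to 0.118 CPM per library. The script was tested on simulated counts.

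Members, gene lists and tests were chosen with earlier results of these data known. Members named are the 13 mitochondrial mRNAs, up to 3 called members per direction and nuclear complex with the smallest adjusted p, core subunits (1 of them is not reported here by name or drawn in the map of levels by library), tissue isoforms, the highest per length and those nearest the level of 5 CPM; of each list, the 2 called genes per direction with the smallest adjusted p. NDUFB11, MT-RNR2 and MTATP6P1 were added where they help to read these, after their values were seen. GC content was taken from the longest GENCODE v44 transcript (GRCh38, which is not the counts' build, and used for names, composition and overlaps only) for 97.6% of genes at 5 CPM or more and all 85 members. Alternatives covered scaling, tool (DESeq2 1.42.0, limma 3.58.1), filters, libraries, a replicate block, GC and length trends, a fold threshold, thinning, and leaving out each library in turn. Promoters came from RefSeq; the motif letters were chosen after the data were seen, and the NRF1 letters were changed once, as the text on promoters states.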

Additional observations from a re-analysis of the deposited data

How the results depend on the processing

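Over 27 alternatives to each of the 20 called results, 371 values kept direction and call, 168 lost the call and 1 reversed, NDUFS1, at 0.01 with the replicate block and the GC trend removed together. For knockout against control without ATRA, 8 members were higher and 11 lower, against 2480 and 4196 of 19130 genes. Higher counts, with those of all genes in brackets, were 15 with DESeq2 (3400 of 19130). They were 13 with the GC trend removed (1615 of 19130) and 15 with the length trend removed (3258 of 19130). With near-identical libraries summed there were 0 (403 of 19777). Without untreated knockout library 3 and ATRA knockout library 2 there were 3 (1734 of 19699). Against a log2 fold change of at least 1 there were 0 (178 of 19130). Lower counts, with the share of all genes lower in brackets, were 5 with the compared groups only (19.1%) and 0 with the GC trend removed (9.15%). They were 0 with the replicate block and the GC trend removed (6.47%), 0 summed (3.38%), 6 without those 2 libraries (13.9%) and 0 against that fold change (1.25%). Leaving out 1 library gave 3 to 24 higher and 2 to 13 lower, against 5.62% to 17.8% and 9.84% to 25.0% of all genes. With ATRA, DESeq2 called 1 higher (1322 of 19130 genes), the GC fit 1 lower (669 of 19130 genes), and leaving out 1 library 0 to 1 higher (148 to 921 of all genes). For ATRA in control, DESeq2 and no filter each called 2 higher, against 870 of 19130 and 707 of 36681 genes. Leaving out 1 library gave 0 to 4 higher and 0 to 1 lower, against 0 to 1148 and 0 to 1355 of all genes. For ATRA in knockout (1 higher), there were 2 with DESeq2, against 356 of 19130 genes. With the compared groups only there were 7, against 723 of 17582 genes. There were 0 with limma-voom, the replicate block, the block and GC, summed libraries, without those 2 libraries and against that fold change. Those fits called 0 of all genes higher, except for 1 with the block and GC. Leaving out 1 library gave 0 to 1, as it did for the interaction, against 0 to 100 of all genes and 0 to 91 for the interaction. The causes were not tested.

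Replicate numbers did not pair the libraries: same-numbered libraries deviated with correlations of -0.485 to 0.393. The replicate block gave 9 higher and 9 lower members in untreated cells, and 2279 higher and 3493 lower of all genes, against 2480 and 4196. Summed levels moved by more than 1 SD on total counts and when scaled without mitochondrial genes: 3440 and 3861 CPM for mitochondrial complex V in the untreated knockout (3663), and in the ATRA knockout 4296 and 4732 for nuclear complex I (4489), 2693 and 2966 for complex IV (2814), 4402 and 4849 for complex V (4599) and 12710 and 14000 for all nuclear subunits (13280).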
